A study of Mus musculus with 4 samples.

Results

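The chemokine system was examined at the level of transcripts in osteoclast progenitors of mouse bone marrow with and without Ptip. Its members were the genes whose symbol is Ccl, Cxcl, Ccr or Cxcr with a number, together with Xcl1, Xcr1, Cx3cl1, Cx3cr1, Ccrl2, Ackr1 to Ackr4 and Cmklr1. Of the 18276 genes of the table, 36 met this rule, 18 chemokine ligands, 16 receptors and 2 atypical receptors. The annotation holds 65 symbols that meet the rule, and the other 29 were not analysed here. Poly(A) RNA was sequenced from freshly isolated marrow cells that carried CD115, the receptor encoded by Csf1r, and lacked B220, CD3 and Mac-1, the integrin chain encoded by Itgam. The mice were of the mixed strain B6;129, and their age is not given in the sources used here. The Ptip_KO group (2 libraries) had the genotype Ptip flox/flox Mx-1Cre, and the WT group (2 libraries) had the genotype WT Mx-1Cre, so both groups carried the Cre transgene. Mx-1Cre is driven by an interferon-inducible promoter that is active in blood cells of every lineage and in other cell types, and the labels name no treatment that induced it. Ptip, with the gene symbol Paxip1, encodes a subunit of complexes that methylate lysine 4 of histone H3.

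Chemokines are small secreted proteins that guide cells along concentration gradients. Their receptors span the membrane and couple to inhibitory G proteins, while atypical receptors bind chemokines without this coupling and scavenge or present them. In bone marrow, Cxcr4 holds progenitors near stromal cells that make Cxcl12, Ccr2 is needed for monocytes to leave the marrow, and Cx3cr1 is the fractalkine receptor of monocytes. The ligands of Ccr1, above all Ccl3 and Ccl9, are known to promote the formation of osteoclasts from their precursors.

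The libraries held 67592972 to 77773478 reads. Values are in CPM, in which reads are scaled to the authors' effective library size, and 1 read corresponded to 0.0127 to 0.0143 CPM. The replicates are described as independent, and whether they came from separate animals is not stated, so that p-values reflect only how these samples differ, which may be technical. Paxip1 was at 5.10 and 3.73 CPM in the Ptip_KO libraries and at 106 and 103 CPM in the WT libraries, a log2 fold change of −4.29 (limma adjusted p = 0.000383, Benjamini-Hochberg). WT replicate 2 stood apart from the other 3 libraries, with 298 CPM of Xist against 0.0428 to 0.0814 CPM, and 0.101 CPM of Ddx3y, a gene of the Y chromosome, against 69.1 to 89.6 CPM. This is the pattern of female cells, and the other 3 libraries had that of male cells. By these genes sex was mixed in WT but not in Ptip_KO, and its part in the comparison was not tested. Csf1r was at 825 and 782 CPM in Ptip_KO and at 677 and 606 CPM in WT (limma adjusted p = 0.149). Itgam, used as a negative marker in the sort, was at 39.2 and 35.1 CPM in Ptip_KO and at 42.1 and 39.6 CPM in WT (limma adjusted p = 0.476). Cd3e was at 0 to 0.190 CPM over the 4 libraries. Genes were tested where at least 1 CPM was reached in at least 2 libraries, which kept 12357 genes and 20 of the 36 members.

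Ptip_KO was compared with WT to ask which chemokines and receptors differ in these progenitors when Ptip is deleted. The myeloid chemokine Ccl6 fell, and no other member passed the test. By limma at an adjusted p under 0.05, 1 of the 20 tested members was lower in Ptip_KO, where 3.86% of all tested genes were lower, so the members' share was close to that of all genes. None was higher by limma, where 2.43% of all tested genes were higher. At an unadjusted p under 0.05, 7 members were lower and 3 were higher, against 12.5% and 11.2% of all tested genes. The edgeR quasi-likelihood test on the recovered reads called 1 member lower, against 3.37% of all genes, and none higher, against 1.97%. DESeq2 called 5 members lower, against 9.11% of all genes, and 3 higher, against 6.31%. Without WT replicate 2, limma called 3 members lower, Ccl6 and Ccr1 among them, against 7.45% of all genes, and no member higher, against 5.66%. The median log2 fold change of the 20 tested members was 0.0016, and that of all 12357 genes was 0.0032. With 2 samples a group, the smallest two-sided p of an exact permutation test is 0.333, and each call therefore depends on variance information that limma borrows from other genes.

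In 7 of the 20 tested members both Ptip_KO libraries lay below both WT libraries, as did 27.3% of all tested genes. In 6 members both lay above, as did 27.7% of all tested genes, and in 7 members the groups overlapped. The ligands had a median log2 fold change of 0.09 (10 tested, 7 with positive and 3 with negative values). The receptors had a median of −0.59 (8 tested, 2 with positive and 6 with negative values). This contrast between ligands and receptors is a description, since it was not tested. Ccr3 and Ackr1 passed the filter on low values only through their WT libraries, and Ccl24 only through its Ptip_KO libraries. In bulk RNA, fewer cells of a type and less RNA per cell cannot be told apart.

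**Figure D1:**
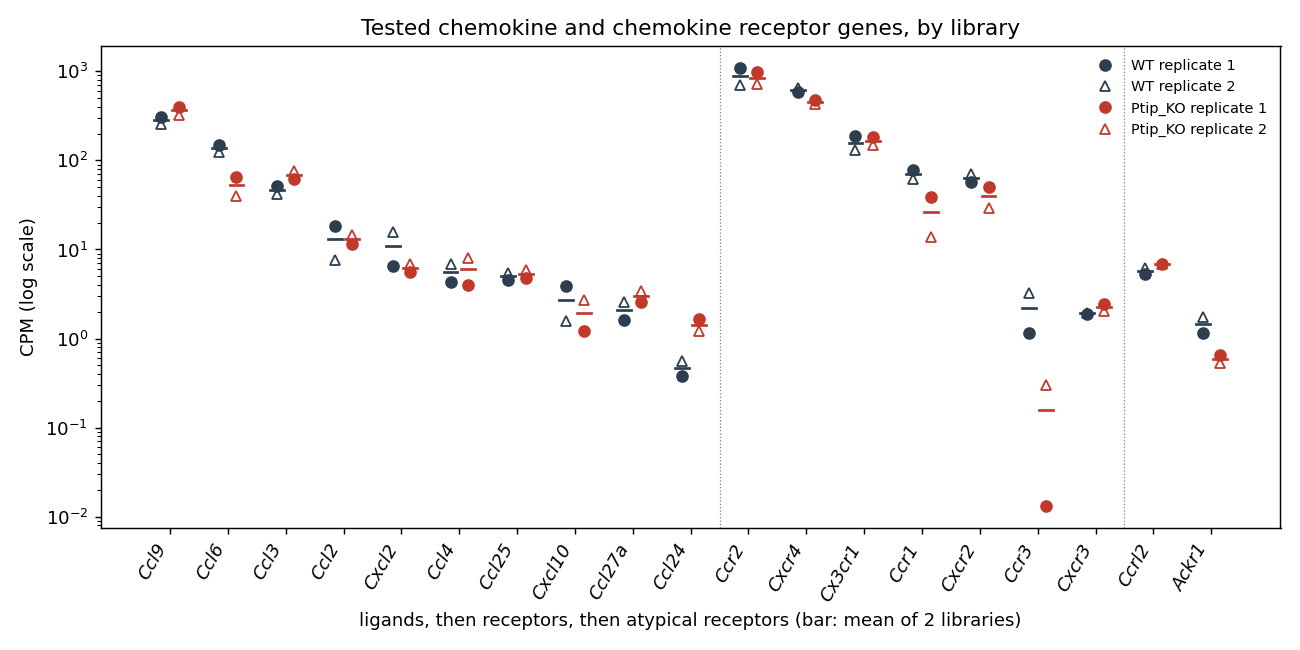
Level of 19 of the 20 tested members in each library, in CPM on a log axis, with ligands on the left, receptors in the middle and atypical receptors on the right. Circles are replicate 1 and triangles replicate 2 of WT (dark) and Ptip_KO (red), and bars are means of 2 libraries. Ccr2, Cxcr4 and Ccl9 lie highest, and the 2 Ptip_KO points of Ccl6 (65.2 and 39.6 CPM) lie below its WT points (151 and 123 CPM).

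Levels of different genes were compared per kilobase of annotated exon. In WT, Cxcr4 was highest with 325 and 360 CPM per kilobase in the 2 libraries, followed by Ccr2 with 162 and 104 CPM per kilobase. The ligands Ccl9, Ccl6 and Ccl3 came next, with WT means of 92.3, 76.3 and 61.1 CPM per kilobase, ahead of Cx3cr1 at 35.1 CPM per kilobase. The 2 libraries of each of Cxcr4, Ccr2, Ccl9 and Ccl6 did not overlap those of the next gene in this order. In Ptip_KO, Cxcr4, Ccr2 and Ccl9 were again the first 3, at 249, 126 and 119 CPM per kilobase. There, Ccr2 and Ccl9 overlapped between libraries (146 and 107 against 132 and 106 CPM per kilobase). Ccl6 had rank 4 among the 20 tested members in WT and rank 6 in Ptip_KO, below Ccl3 and Cx3cr1. In Ptip_KO the libraries of Ccl6 and Cx3cr1 overlapped (36.3 and 22.1 against 40.7 and 32.7 CPM per kilobase). Cxcl12, the ligand of Cxcr4, was at 0.171 to 0.380 CPM and under the filter.

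Ccl6 is a CC chemokine of mouse myeloid cells that signals through Ccr1. It was at 65.2 and 39.6 CPM in the Ptip_KO libraries and at 151 and 123 CPM in the WT libraries. Both Ptip_KO libraries lay below both WT libraries, and the groups did not overlap. The WT mean was 137 ± 19.4 CPM and the Ptip_KO mean 52.4 ± 18.1 CPM (SD, n = 2 each), 2.61-fold lower. The log2 fold change was −1.41 (standard error 0.240), with a 95% interval from −2.00 to −0.81, which like those below is not adjusted for the number of genes (limma adjusted p = 0.0321). The edgeR adjusted p was 0.0443, and that of DESeq2 was 4.5e-08. The call held with each library left out, at limma adjusted p between 0.00118 and 0.0156 and log2 fold changes between −1.76 and −1.05. It was lost with a robust variance prior, at a limma adjusted p of 0.0517. The 12 macrophage markers summed to 24.7 and 29.2 CPM in Ptip_KO and to 139 and 117 CPM in WT. Of the 9 tested markers 7 fell by limma, where 3.86% of all tested genes fell. Of these 7, C1qa, C1qb and C1qc passed the filter on low values only through their WT libraries. Adgre1 alone gave 8.67 and 6.79 CPM of the sums in Ptip_KO and 90.5 and 51.7 CPM in WT. The part of the macrophage markers in the values of Ccl6 and Ccr1 was not tested.

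Ccl9 and Ccl3 are the genomic neighbours of Ccl6 that these cells also transcribed strongly, and both are ligands of Ccr1. Ccl9 was at 403 and 324 CPM in Ptip_KO and at 304 and 258 CPM in WT. Both Ptip_KO libraries lay above both WT libraries, and the log2 fold change of 0.37 did not pass the test (limma adjusted p = 0.199). Ccl3, also known as MIP-1 alpha, was at 61.8 and 75.8 CPM in Ptip_KO and at 51.3 and 42.3 CPM in WT. Its Ptip_KO libraries were again above its WT libraries, and the log2 fold change was 0.55 (limma adjusted p = 0.0892). DESeq2 called both, at an adjusted p of 0.0445 for Ccl9 and 0.00719 for Ccl3, and limma called Ccl3 without WT replicate 1 (adjusted p = 0.0108). Ccl4, also known as MIP-1 beta, lies beyond Ccl3 and was at 4.01 and 8.08 CPM in Ptip_KO and at 4.30 and 6.91 CPM in WT. The groups of Ccl4 overlapped, and its log2 fold change was 0.06 (limma adjusted p = 0.943).

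These genes lie together on chromosome 11 (GRCm38, the assembly of mm10), with the low member Ccl5 at 83525778 to 83530518, Ccl9 at 83572919 to 83578636, Ccl6 at 83587882 to 83593087, Ccl3 at 83647844 to 83649355 and Ccl4 at 83662584 to 83664683. Ccl6 and Ccl9 are on the minus strand side by side, and no other annotated gene overlaps an exon of Ccl6, Ccl9, Ccl3 or Ccl4. The 250 bases before the start of Ccl6, Ccl9 and Ccl3 are shown because Ccl6 fell while the levels of Ccl9 and Ccl3 were higher in both Ptip_KO libraries. They are RefSeq sequences on GRCm38.p6, written 5′ to 3′ on the minus strand, at chr11:83593088-83593337 for Ccl6, chr11:83578637-83578886 for Ccl9 and chr11:83649379-83649628 for Ccl3. Capitals mark matches to 4 short motifs on either strand, GAGGAA for PU.1, TTNNGNAAT for C/EBP, GGGANNTTC for NF-kB and TGANTCA for AP-1.
Ccl6: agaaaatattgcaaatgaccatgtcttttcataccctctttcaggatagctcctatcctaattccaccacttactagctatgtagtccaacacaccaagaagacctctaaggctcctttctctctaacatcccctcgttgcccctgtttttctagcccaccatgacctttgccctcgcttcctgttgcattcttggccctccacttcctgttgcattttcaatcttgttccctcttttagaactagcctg
Ccl9: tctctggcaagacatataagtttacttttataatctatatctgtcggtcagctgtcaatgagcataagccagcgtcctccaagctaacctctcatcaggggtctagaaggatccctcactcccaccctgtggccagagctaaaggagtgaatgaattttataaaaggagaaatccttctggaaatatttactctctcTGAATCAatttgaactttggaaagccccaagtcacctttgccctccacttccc
Ccl3: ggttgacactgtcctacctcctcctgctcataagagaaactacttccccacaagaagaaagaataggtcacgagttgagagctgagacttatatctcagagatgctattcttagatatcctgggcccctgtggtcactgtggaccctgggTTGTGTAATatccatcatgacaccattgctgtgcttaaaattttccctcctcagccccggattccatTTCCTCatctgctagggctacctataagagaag

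None of the 4 motifs was found in the Ccl6 window. The Ccl9 window held an AP-1 match 53 bases before the start. The Ccl3 window held a PU.1 match 33 bases and a C/EBP match 100 bases before the start. A match is a description and not a bound site, and no match says only that these letters are not in this window. Of the 36 members, 26 had a RefSeq window, and 8 of these (30.8%) held the PU.1 motif, which was in 23.3% of all 32851 windows of this length. The C/EBP motif was in 4 member windows (15.4%) against 10.2% of all windows. The NF-kB motif was in 5 (19.2%), those of Ccr3, Cxcl10, Cxcl2, Cxcl9 and Cxcr2, against 3.23% of all windows. The AP-1 motif was in 3 (11.5%), those of Ccl9, Ccr3 and Cxcl10, against 6.75% of all windows.

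**Figure D2:**
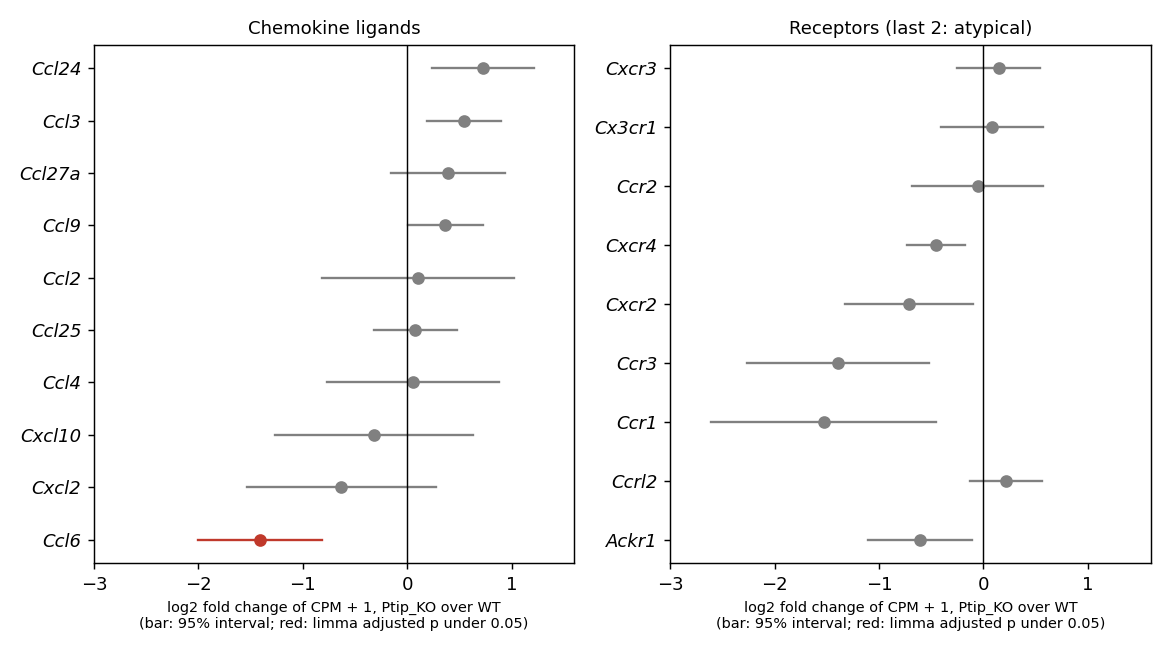
Log2 fold change of CPM + 1 of 19 of the 20 tested members, Ptip_KO over WT, with its 95% limma interval, for ligands (left) and for receptors with the 2 atypical receptors last (right). Red marks a limma adjusted p under 0.05, which Ccl6 alone reached among these 19 genes, with an interval from −2.00 to −0.81. The intervals of Ccr2 and Cx3cr1 lie around 0.

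The other ligands were at most 18.4 CPM in any library. Ccl24, or eotaxin-2, is a ligand of Ccr3 and was at 1.66 and 1.21 CPM in Ptip_KO and at 0.380 and 0.558 CPM in WT. Its Ptip_KO libraries lay above its WT libraries, with a log2 fold change of 0.73 (limma adjusted p = 0.0940, DESeq2 adjusted p = 0.0368). Ccl27a, a skin chemokine that binds Ccr10, was at 2.56 and 3.44 CPM in Ptip_KO and at 1.601 and 2.549 CPM in WT. Its lower Ptip_KO value lay next to its higher WT value (2.562 and 2.549 CPM), and the log2 fold change of 0.39 did not pass the test (limma adjusted p = 0.353). The Ccl27a value is uncertain, since its transcript has a copy in Ccl27b at 99.3% identity and its exons overlap Il11ra1 on the opposite strand, a gene at 18.3 to 27.4 CPM. Ccl2, the main ligand of Ccr2, was at 11.6 and 14.4 CPM in Ptip_KO and at 18.4 and 7.63 CPM in WT. The Ccl2 groups overlapped (log2 fold change 0.11, limma adjusted p = 0.902). Its log2 fold change changed sign with the WT library left out, at 0.69 without WT replicate 1 and −0.48 without WT replicate 2.

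Cxcl2 attracts neutrophils through Cxcr2 and was at 5.54 and 6.94 CPM in Ptip_KO and at 6.51 and 15.5 CPM in WT. The groups overlapped, and WT replicate 2 lay far above the other 3 libraries. The log2 fold change of Cxcl2 was −0.63 (limma adjusted p = 0.369), −1.20 without WT replicate 1 (adjusted p = 0.00165) and −0.06 without WT replicate 2. The interferon-induced ligand Cxcl10, which binds Cxcr3, was at 1.21 and 2.71 CPM in Ptip_KO and at 3.89 and 1.59 CPM in WT. The groups overlapped, with a log2 fold change of −0.31 (limma adjusted p = 0.676), and an exon of Cxcl10 overlaps Art3 on the opposite strand. Ccl25, the ligand of Ccr9, was at 4.77 and 5.88 CPM in Ptip_KO and at 4.57 and 5.39 CPM in WT. Its groups overlapped too (log2 fold change 0.08, limma adjusted p = 0.814), and its exons overlap Elavl1 on the opposite strand, a gene at 111 to 122 CPM.

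None of the 8 tested receptors was called by limma or edgeR. At an unadjusted limma p under 0.05, 5 were lower and none higher, where 12.5% of all tested genes were lower. DESeq2 called 4 lower, Cxcr4, Ccr3 and Cxcr2 among them, and none higher, where it called 9.11% of all tested genes lower. In 5 receptors both Ptip_KO libraries were below both WT libraries, as in 27.3% of all tested genes, in Cxcr3 both were above, and in Ccr2 and Cx3cr1 the groups overlapped. Ccr3, which is in each of these counts of lower receptors, passed the filter on low values only through its WT libraries.

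Cxcr4, the receptor of Cxcl12, was at 475 and 427 CPM in Ptip_KO and at 587 and 651 CPM in WT. The 4 values did not overlap between groups, and the log2 fold change was −0.46 with a 95% interval from −0.73 to −0.18 (limma adjusted p = 0.0739, DESeq2 adjusted p = 0.000920). Without WT replicate 1 limma called Cxcr4, at an adjusted p of 0.0287. Ccr1, the receptor shared by Ccl3, Ccl6 and Ccl9, was at 38.5 and 13.97 CPM in Ptip_KO and at 78.1 and 61.4 CPM in WT. Ptip_KO replicate 2 was lowest, and the groups did not overlap. On the log2(CPM + 1) scale Ccr1 differed by −1.53, the most negative value among the 20 tested members, and its standard error of 0.435 was the largest there. By edgeR and DESeq2 its log2 fold change was −1.41, and that of Ccr3 was more negative, at −3.82 and −3.81. The limma adjusted p was 0.106, that of edgeR was 0.146 and that of DESeq2 was 0.159. Limma called Ccr1 without Ptip_KO replicate 1 (log2 fold change −2.23, adjusted p = 0.00120), without Ptip_KO replicate 2 (−0.83, 0.0498) and without WT replicate 2 (−1.70, 0.0172).

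Ccr3, the eotaxin receptor of eosinophils and basophils, was at 0.0131 and 0.300 CPM in Ptip_KO, from 1 and 21 reads, and at 1.15 and 3.22 CPM in WT, from 85 and 254 reads. The 4 libraries differed widely also within each group, and the groups did not overlap. The log2 fold change of Ccr3 was −1.39 on the log2(CPM + 1) scale (limma adjusted p = 0.0807, DESeq2 adjusted p = 0.00637). It was −2.54 with a pseudocount of 0.25 and −0.46 with a pseudocount of 5, and without WT replicate 1 limma called it (adjusted p = 0.000990). The eosinophil markers summed to 19.1 and 79.1 CPM in Ptip_KO and to 42.3 and 199.9 CPM in WT, and the basophil and mast cell markers to 171 and 278 CPM and to 162 and 339.7 CPM. All 6 tested eosinophil markers had negative log2 fold changes, with a median of −1.13, and 7 of 8 tested basophil and mast cell markers did, with a median of −0.36. No gene of these marker lists was called (limma; 0 of 6 and 0 of 8, also 0 at an unadjusted p under 0.05 and 0 by edgeR and DESeq2), and their part in the values of Ccr3 was not tested.

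Cxcr2, the receptor of neutrophils for Cxcl2, was at 49.9 and 29.5 CPM in Ptip_KO and at 57.6 and 70.2 CPM in WT. The groups did not overlap, and the log2 fold change was −0.71 (limma adjusted p = 0.159, DESeq2 adjusted p = 0.0391). Limma called Cxcr2 without Ptip_KO replicate 1 (adjusted p = 0.0165) and without WT replicate 1 (adjusted p = 0.0410). The 12 neutrophil markers summed to 1702 and 1267 CPM in Ptip_KO and to 2651 and 4740.5 CPM in WT, with a median log2 fold change of −1.46. None of the 12 was called by limma or edgeR, 9 were lower at an unadjusted limma p under 0.05, and DESeq2 called 4 lower. Of all tested genes, 12.5% were lower at that unadjusted p, and DESeq2 called 9.11% lower. The part of the neutrophil markers in the values of Cxcr2, Cxcl2, Ccr1 and Ccl6 was not tested. Cxcr3, the receptor of Cxcl9 and Cxcl10 on T cells and NK cells, was at 2.42 and 2.06 CPM in Ptip_KO and at 1.89 and 1.95 CPM in WT. Its Ptip_KO libraries lay just above its WT libraries, with a log2 fold change of 0.15 (limma adjusted p = 0.635).

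Ccr1, Ccr3 and Ccr2 lie near each other on chromosome 9, at 123962124 to 123968692, 124021972 to 124031689 and 124101950 to 124113557. Cxcr4 lies on chromosome 1 at 128588199 to 128592293. The windows of 250 bases before the start of Cxcr4, Ccr1 and Ccr3 are shown because these receptors were lower in both Ptip_KO libraries without passing the test. Cxcr4 lies at chr1:128592300-128592549 and Ccr1 at chr9:123968693-123968942, both on the minus strand, and Ccr3 at chr9:124021721-124021970 on the plus strand. Capitals mark the same 4 motifs.
Cxcr4: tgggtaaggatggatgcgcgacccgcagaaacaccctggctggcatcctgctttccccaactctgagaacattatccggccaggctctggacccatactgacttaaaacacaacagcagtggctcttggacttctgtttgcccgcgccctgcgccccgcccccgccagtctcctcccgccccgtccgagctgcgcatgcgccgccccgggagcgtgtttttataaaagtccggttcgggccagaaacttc
Ccr1: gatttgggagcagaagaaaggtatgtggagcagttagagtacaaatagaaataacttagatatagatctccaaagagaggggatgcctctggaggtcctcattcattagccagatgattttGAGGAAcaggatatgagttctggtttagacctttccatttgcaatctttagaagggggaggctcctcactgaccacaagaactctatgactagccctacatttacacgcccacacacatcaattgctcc
Ccr3: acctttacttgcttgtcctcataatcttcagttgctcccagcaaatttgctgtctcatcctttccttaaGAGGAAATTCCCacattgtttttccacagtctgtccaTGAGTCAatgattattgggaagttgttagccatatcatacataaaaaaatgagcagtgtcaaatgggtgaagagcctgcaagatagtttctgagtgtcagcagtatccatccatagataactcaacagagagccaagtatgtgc

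The Cxcr4 window held none of the 4 motifs. The Ccr1 window held a PU.1 match 129 bases before the start. In the Ccr3 window a PU.1 match 181 bases before the start overlapped an NF-kB match 178 bases before it, and an AP-1 match followed 144 bases before the start.

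Ccr2 and Cx3cr1 mark the 2 states of mouse monocytes, Ly6C-high cells with much Ccr2 and Ly6C-low cells with much Cx3cr1. Ccr2 was at 984 and 721 CPM in Ptip_KO and at 1095 and 699.6 CPM in WT. Cx3cr1 was at 183 and 147 CPM in Ptip_KO and at 186 and 129.8 CPM in WT. In both genes the groups overlapped, and the difference between the group means was smaller than the SD of either group. The log2 fold change of Ccr2 was −0.05 with a 95% interval from −0.68 to 0.57 (limma adjusted p = 0.927), and that of Cx3cr1 was 0.08 with an interval from −0.40 to 0.57 (limma adjusted p = 0.849). These intervals leave room for differences of either sign, and the signs changed with the library left out, from −0.38 to 0.27 for Ccr2 and from −0.18 to 0.34 for Cx3cr1. An antisense transcript, Gm33858, overlaps exons of Cx3cr1.

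Of the Ly6C-high state, 14 genes were tested, Ccr2 and Ccr1 among them. By limma 2 of the 14 fell and none rose, where 3.86% of all tested genes fell and 2.43% rose. The log2 fold change was negative in 11 and positive in 3, and at an unadjusted p under 0.05 there were 7 lower and none higher, where 12.5% of all tested genes were lower. Fn1, which encodes fibronectin, fell from 3015 and 1195 CPM in WT to 188 and 86.0 CPM in Ptip_KO, a log2 fold change of −3.89 (limma adjusted p = 0.0187). Vcan, the gene of the matrix proteoglycan versican, fell from 76.9 and 22.4 CPM to 5.21 and 2.06 CPM, a log2 fold change of −3.29 (limma adjusted p = 0.0397). Both calls were lost with a robust variance prior, at adjusted p of 0.0724 and 0.140, and that of Vcan also by edgeR (0.0564), with a pseudocount of 5 (0.0529) and after scaling to a common sum (0.0580). DESeq2 called 6 genes of the list lower and none higher, against 9.11% and 6.31% of all tested genes. The edgeR test called 1 lower, against 3.37% of all tested genes. Ly6c2, which gives this state its name, was at 1360.2 and 1195 CPM in Ptip_KO and at 2059 and 1764 CPM in WT. Its groups did not overlap, with a log2 fold change of −0.58 (limma adjusted p = 0.0768, DESeq2 adjusted p = 6.85e-06).

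The rest of the Ly6C-high list did not pass by limma. The chitinase-like gene Chil3 was at 694 and 197 CPM in Ptip_KO and at 1353 and 776 CPM in WT (log2 fold change −1.47). The coagulation factor gene F13a1 was at 2382 and 1699 CPM and at 3701 and 2849.6 CPM (−0.69). Gm9733 was at 5.96 and 4.01 CPM and at 20.3 and 9.12 CPM (−1.31), and Plac8 was at 649 and 674 CPM and at 861 and 955 CPM (−0.45). These 4 genes were lower in both Ptip_KO libraries than in both WT libraries. Selplg, the ligand of P-selectin, was at 1032 and 881 CPM and at 1178 and 993 CPM (−0.18). S100a4 was at 17.9 and 16.0 CPM and at 16.5 and 8.75 CPM (0.46), and Mgst1 at 186 and 134 CPM and at 139 and 121 CPM (0.28). In Selplg, S100a4 and Mgst1 the groups overlapped. Fcnb was at 58.9 and 101 CPM in Ptip_KO and at 57.6 and 49.4 CPM in WT (0.52), with no overlap, and Ly6c1 was under the filter at 0.685 to 1.02 CPM. Ccr1, described above, is also a gene of this list. The list summed to 8440.3 and 6362 CPM in Ptip_KO and to 14476 and 10296 CPM in WT, with a median log2 fold change of −0.52.

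Of the Ly6C-low state, 13 genes were tested. By limma 4 of the 13 fell and none rose, where 3.86% of all tested genes fell and 2.43% rose. At an unadjusted limma p under 0.05, 6 were lower and none higher, where 12.5% of all tested genes were lower. DESeq2 called 6 lower and none higher, against 9.11% and 6.31% of all tested genes. The edgeR test called 3 lower, against 3.37%. Cd36, a scavenger receptor, fell from 8.52 and 14.7 CPM in WT to 3.28 and 4.08 CPM in Ptip_KO (log2 fold change −1.39, limma adjusted p = 0.0397). Pglyrp1, which binds bacterial peptidoglycan, fell from 37.6 and 54.6 CPM to 20.6 and 18.4 CPM (−1.18, 0.0267). The adhesion molecule Ceacam1 fell from 72.4 and 53.2 CPM to 30.9 and 24.7 CPM (−1.14, 0.0267), and Treml4 from 4.11 and 3.46 CPM to 1.33 and 1.03 CPM (−1.14, 0.0244). The call of Cd36 was lost without Ptip_KO replicate 1 (adjusted p = 0.0706) and by edgeR (0.0572), and that of Treml4 without Ptip_KO replicate 2 (0.0868). After scaling to a common sum the calls of Cd36 (0.0757) and Pglyrp1 (0.0585) were lost, and with a pseudocount of 5 that of Cd36 (0.0510). Nr4a1, the transcription factor on which Ly6C-low monocytes depend, was at 34.1 and 41.1 CPM in Ptip_KO and at 41.4 and 25.7 CPM in WT. Its groups overlapped, with a log2 fold change of 0.19 (limma adjusted p = 0.668).

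Among the genes of the Ly6C-low list that did not pass, Ace was at 1.48 and 0.699 CPM in Ptip_KO and at 8.29 and 3.36 CPM in WT (log2 fold change −1.63, limma adjusted p = 0.0711). The integrin Itgal was at 146 and 135 CPM and at 199 and 167 CPM (−0.38), and Eno3 at 6.28 and 5.45 CPM and at 7.04 and 6.44 CPM (−0.17). These 3 were lower in both Ptip_KO libraries. Spn, which encodes CD43, was at 989 and 928 CPM and at 934 and 898 CPM (0.07), and Gngt2 at 8.97 and 8.79 CPM and at 11.3 and 7.53 CPM (−0.05). Klf2 was at 86.9 and 122 CPM and at 118 and 69.5 CPM (0.18). In these 3 the groups overlapped. Pou2f2 was at 24.9 and 24.1 CPM and at 23.7 and 17.6 CPM (0.25), higher in both Ptip_KO libraries. Fabp4 was under the filter at 0.114 to 0.9003 CPM, and Apoc2 was not analysed here. The list summed to 1537 and 1462 CPM in Ptip_KO and to 1653 and 1452 CPM in WT, with a median log2 fold change of −0.17. Spn alone gave 989 and 928 CPM of the sums in Ptip_KO and 934 and 898 CPM in WT.

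**Figure D3:**
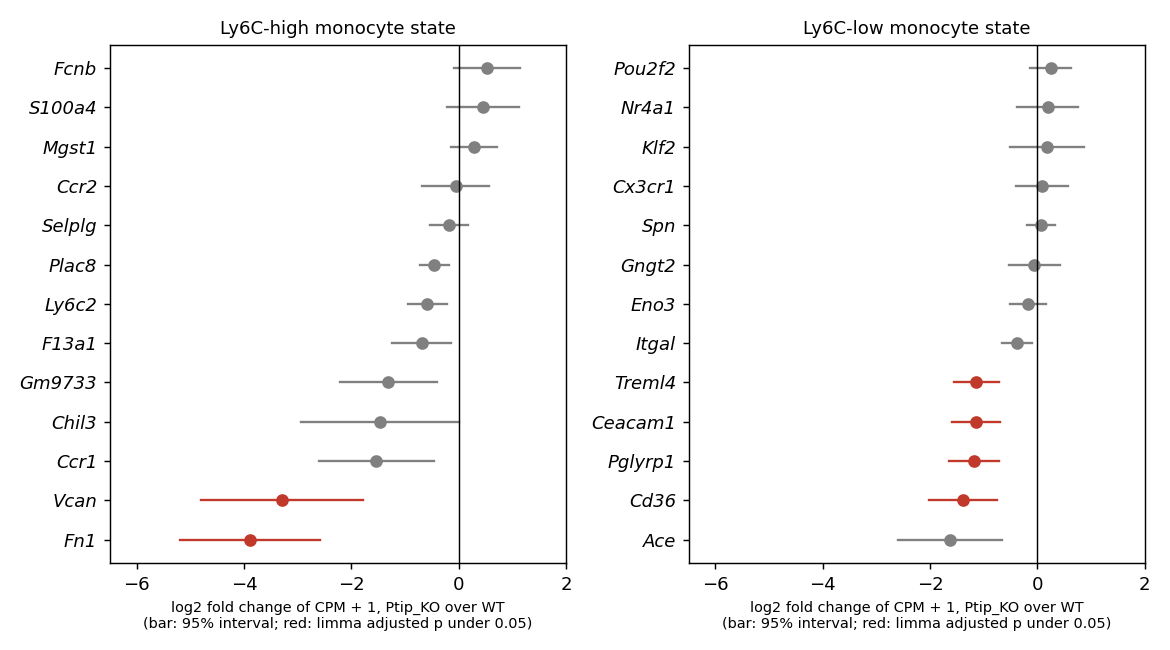
Log2 fold change of CPM + 1, Ptip_KO over WT, with its 95% limma interval, for tested genes of the Ly6C-high (left, 13 of 14 genes) and Ly6C-low (right, all 13 genes) monocyte states. Red marks a limma adjusted p under 0.05. Fn1 and Vcan are red on the left and Treml4, Cd36, Ceacam1 and Pglyrp1 on the right, while the intervals of Ccr2 and Cx3cr1 span 0.

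Of the atypical receptors, Ackr1 binds many chemokines and in marrow is carried by red cell precursors, and Ccrl2 binds chemerin, the ligand of Cmklr1. Ackr1 was at 0.657 and 0.528 CPM in Ptip_KO, from 50 and 37 reads, and at 1.15 and 1.72 CPM in WT, from 85 and 136 reads. Both Ptip_KO libraries were below both WT libraries, and the log2 fold change of −0.61 did not pass the test (limma adjusted p = 0.147). An exon of Ackr1 overlaps Cadm3 on the same strand, a gene at 2.05 to 4.48 CPM, so that the authors' counting could have left out or moved shared reads. The 12 red cell markers summed to 938 and 1251 CPM in Ptip_KO and to 2339 and 5119 CPM in WT, and their part in the values of Ackr1 was not tested. Ccrl2 was at 6.83 and 6.82 CPM in Ptip_KO and at 5.25 and 6.25 CPM in WT. Its Ptip_KO libraries lay above its WT libraries, with a log2 fold change of 0.22 (limma adjusted p = 0.406).

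The other 16 members were under the filter on low values, at 0 to 1.90 CPM and 0 to 150 reads per library, and were not tested. Both Ptip_KO libraries lay below both WT libraries in 9 of the 16, where 20.7% of the 5919 genes under the filter did. They lay above in none, where 21.2% of those genes did, and in 7 the groups overlapped. The dendritic cell receptors were among the 9. Ccr7, which leads dendritic cells to lymph nodes, was at 0.158 and 0.257 CPM in Ptip_KO and at 0.692 and 1.05 CPM in WT. Xcr1, the receptor of cross-presenting dendritic cells, was at 0.434 and 0.485 CPM in Ptip_KO and at 0.746 and 0.862 CPM in WT. Its ligand Xcl1 was at 0.144 and 0.157 CPM in Ptip_KO and at 0.638 and 0.380 CPM in WT. Dendritic cell markers summed to 220.2 to 254 CPM in Ptip_KO and to 246 to 249.98 CPM in WT, with Klk1 at 0 in a library. The sums hold Tcf4, which was at 105 and 104 CPM in Ptip_KO and at 55.5 and 64.4 CPM in WT. The other 9 of the 10 tested markers had negative log2 fold changes. Zbtb46 was 5.28-fold and Itgax 2.94-fold lower in Ptip_KO by the group means. The part of these markers in the values of Ccr7 and Xcr1 was not tested, nor was that of any marker list in the value of Xcl1.

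Ccr9, the receptor of Ccl25 on T cells and plasmacytoid dendritic cells, was at 0.565 and 0.4995 CPM in Ptip_KO and at 0.746 and 1.90 CPM in WT. Its value is uncertain, since AC165425.1 is a copy at 100% identity and its exons overlap several other genes. Cxcl16, the ligand of Cxcr6, was at 0.355 and 0.557 CPM in Ptip_KO and at 1.10 and 0.951 CPM in WT, and its exons overlap Zmynd15 on the opposite strand. Cxcr6 itself, a receptor of T cells, was at 0.09195 and 0.243 CPM in Ptip_KO and at 0.529 and 0.342 CPM in WT. Both genes of this ligand and receptor pair were lower in both Ptip_KO libraries. Ccl5, a chemokine that attracts T cells and monocytes, was at 0.158 and 0.471 CPM in Ptip_KO and at 0.583 and 0.748 CPM in WT. Cxcr1, a neutrophil receptor, was at 0.0263 and 0.0285 CPM in Ptip_KO, from 2 reads each, and at 0.271 and 0.5199 CPM in WT, from 20 and 41 reads.

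The other low members that reached 0.5 CPM in a library overlapped between groups. The chemerin receptor Cmklr1 was at 0.683 and 0.4995 CPM in Ptip_KO and at 0.678 and 0.5199 CPM in WT. Cxcl9, an interferon-induced ligand of Cxcr3, was at 0.2496 and 0.913 CPM and at 0.502 and 0.482 CPM. Cxcr5, a receptor of B cells, was at 0.105 and 0.0856 CPM and at 0.0678 and 0.533 CPM. The remaining 5, named after their values were seen, were Ccr10, Cxcl12, Cx3cl1, Ccl22 and Ccl7, at 0 to 0.482 CPM. Exons of Cxcr5 and Xcl1 overlap Bcl9l and Gm20743 on the opposite strand. Cxcl12 was lower in both Ptip_KO libraries (0.171 and 0.171 CPM against 0.3799 and 0.3804 CPM), and Ccl7 had 0 reads in WT replicate 2, which at the depth of that library allows up to 0.0380 CPM.

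**Figure D4:**
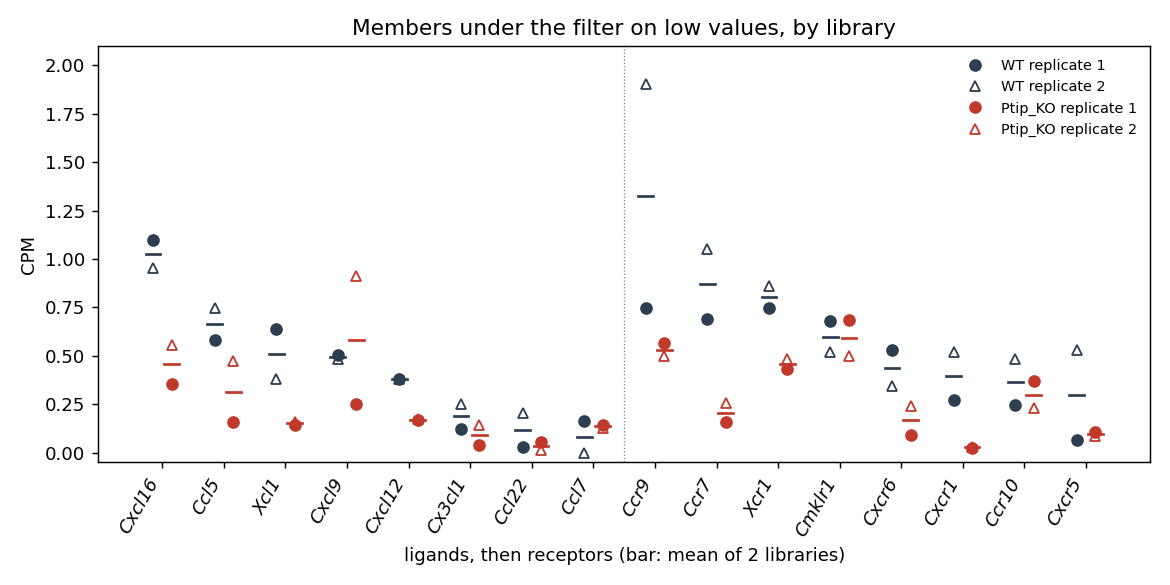
Level in CPM of the 16 members under the filter in each library, ligands on the left and receptors on the right, with circles for replicate 1, triangles for replicate 2, WT dark and Ptip_KO red, and bars for means of 2 libraries. The highest value is 1.90 CPM, for Ccr9 in WT replicate 2, and the WT points of Cxcl16, Ccr7, Xcr1 and Xcl1 lie above the Ptip_KO points.

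Downstream of the receptors, G proteins, phospholipase C, phosphoinositide 3-kinase, receptor kinases and small GTPases carry the signal. Of 67 genes on a list of this pathway, 62 were tested, with a median log2 fold change of 0.02. By limma 1 rose and 2 fell, where 2.43% of all tested genes rose and 3.86% fell. DESeq2 called 5 higher and 4 lower, against 6.31% and 9.11% of all tested genes. The edgeR test called 1 higher and 2 lower, against 1.97% and 3.37%. The phospholipase C gene Plcb1 fell from 66.0 and 51.7 CPM in WT to 25.4 and 20.3 CPM in Ptip_KO, a log2 fold change of −1.33 (limma adjusted p = 0.0146). Grk5, a kinase that desensitises G protein-coupled receptors, fell from 23.0 and 17.0 CPM to 8.62 and 6.81 CPM, a log2 fold change of −1.26 (limma adjusted p = 0.0231). The focal adhesion kinase gene Ptk2 rose from 4.72 and 4.05 CPM to 8.03 and 7.88 CPM, a log2 fold change of 0.74 (limma adjusted p = 0.0392). The Ptk2 call was lost by edgeR (adjusted p = 0.0542), without a filter (0.0652), without Ptip_KO replicate 1 (0.170) and without Ptip_KO replicate 2 (0.155). Gnai2, the main inhibitory G protein alpha subunit of leukocytes, was at 1078 and 969 CPM in Ptip_KO and at 1194 and 942 CPM in WT. Its groups overlapped, with a log2 fold change of −0.05 (limma adjusted p = 0.877).

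A list of 28 other receptors for chemoattractants had 17 tested genes, with a median log2 fold change of −0.25. By limma 1 rose and 2 fell, where 2.43% of all tested genes rose and 3.86% fell. P2ry6, a receptor of the nucleotide UDP, fell from 20.0 and 11.7 CPM in WT to 4.64 and 3.47 CPM in Ptip_KO, a log2 fold change of −1.70 (limma adjusted p = 0.0262). S1pr5, a receptor of sphingosine 1-phosphate, fell from 2.69 and 1.57 CPM to 0.473 and 0.143 CPM, a log2 fold change of −1.25 (limma adjusted p = 0.0493). S1pr5 passed the filter on low values only through its WT libraries. P2ry14, a receptor of UDP-glucose, rose from 1.36 and 1.81 CPM to 3.55 and 4.37 CPM, a log2 fold change of 0.94 (limma adjusted p = 0.0430). The calls of S1pr5 and P2ry14 were lost by edgeR (adjusted p of 0.0707 and 0.0691) and without either Ptip_KO library (0.0676 and 0.163 for S1pr5, 0.0963 and 0.215 for P2ry14). Scaling to a common sum also ended both calls (0.0630 for S1pr5 and 0.0647 for P2ry14), as did a pseudocount of 5 for S1pr5 (0.0681). DESeq2 called 6 of the 17 lower and 1 higher, where it called 9.11% of all tested genes lower and 6.31% higher.

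Markers of other cells moved with the groups to different extents. Of these cells, the sort against B220 and CD3 would remove B and T cells. The sort was also against Mac-1 and would remove cells that carry that integrin chain. How far it took out the cells of each list was not tested. The part of all these markers in the chemokine values was not tested. Over all tested genes, limma called 3.86% lower and 2.43% higher. Of 9 tested macrophage markers, 7 fell by limma (C1qa, Adgre1, C1qb, Axl, C1qc, Mrc1 and Cd163). Of these, C1qa, C1qb and C1qc passed the filter on low values only through their WT libraries. Adgre1, which encodes F4/80, fell from 90.5 and 51.7 CPM in WT to 8.67 and 6.79 CPM in Ptip_KO, and C1qa, a complement gene of macrophages, from 3.19 and 3.79 CPM to 0.158 and 0.143 CPM. Of 12 red cell markers, 9 fell, with Hemgn, Tfrc, Slc4a1, Car2, Klf1, Hba-a2 and Hba-a1 among the 8 of smallest p. Of 14 genes of early myeloid progenitors, Kit (15.3 ± 1.18 CPM in Ptip_KO against 61.3 ± 16.7 CPM in WT, SD, n = 2) and Flt3 (38.7 ± 5.86 against 72.7 ± 7.22 CPM) fell. Other genes of this list went the other way, and its median log2 fold change was −0.09. At an unadjusted limma p under 0.05, 3 of its genes were lower and 3 higher, against 12.5% and 11.2% of all tested genes. Among 10 dendritic cell markers Zbtb46 and Itgax fell and Tcf4 rose, and among 3 B cell markers Cd79b rose. Without Ptip_KO replicate 1 or 2, the calls of Tfrc (adjusted p of 0.0795 and 0.0508) and Cd79b (0.133 and 0.0836) were lost, and edgeR did not call Cd79b, Klf1, Hba-a1 or Hba-a2. No gene was called by limma, edgeR or DESeq2 or at an unadjusted p under 0.05 among the tested T and NK cell (2), megakaryocyte (2) and stromal (2) markers, with Cd3e and Cd8a at 0 in a library. Another 14 T and NK cell, 7 megakaryocyte and 6 stromal markers were under the filter and could not be called. Of these, 7, 3 and 3 were lower in both Ptip_KO libraries and none was higher in both. Among all genes under the filter, 20.7% were lower and 21.2% higher in both. These 3 lists summed to 36.9 to 77.3, 7.9997 to 28.9 and 101 to 115 CPM over the 4 libraries.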

How the data were processed

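Per the labels' protocols, poly(A) libraries were made with the Illumina TruSeq Stranded mRNA kit. Tools named in the submitters' processing notes are TopHat2 2.0.10, HTSeq 0.6.0 and edgeR 3.8.6, with the build mm10; whether counting used strand is not given in the sources used here. The authors deposited a normalized signal per gene, which their name for the table gives as CPM on effective library size. Values were whole multiples of 1 read for 100% of entries (within 0.01), so reads were recovered. The WT column numbered 3 was matched by description to WT replicate 2. Replicates differed by more than sampling noise (chi-square per degree of freedom 38.2 in Ptip_KO and 82.1 in WT).

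The main test was limma 3.58.1 (R 4.3.3), 2-sided, with a trended variance prior, on log2(CPM + 1), which understates changes of low genes, with Benjamini-Hochberg adjustment over 12357 genes at 0.05. Alternatives were edgeR 4.0.16 and DESeq2 1.42.0 on the recovered reads, and other pseudocounts, filters, scalings and variance priors, a replicate block and each library left out. The test was checked on simulated data. Positions and exon lengths are from GENCODE M21, and copies were sought with BLAST 2.17.0 at 95% identity or more. Members, lists and tests were chosen with earlier results of these data known. Some genes, 1 tested member among them, stay in the counts, medians and sums but are not reported here. Named were the other tested members, low members reaching 0.5 CPM, called genes of each list (at most 8), the genes of both monocyte state lists, and Ly6c2, Nr4a1, Gnai2, Csf1r, Itgam and Paxip1. Counting limits use 3 reads and cover counting error only.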

Additional observations from a re-analysis of the deposited data

How the results depend on the processing

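Of 260 combinations of 19 tested members with 14 alternatives, 228 kept direction and call, 19 gained a call (9 members), 1 lost it (Ccl6 with a robust variance prior) and 12 changed sign (6 members). The lower members numbered 1 by the main limma test, 5 by DESeq2 and 0 with a robust variance prior. Among all tested genes, 3.86% were lower by the main limma test and 9.11% by DESeq2. The higher members numbered 0 by the main limma test and 3 by DESeq2, where 2.43% and 6.31% of all tested genes were higher. Called signalling genes numbered 3 by the main limma test and 9 by DESeq2. Called receptors of other chemoattractants numbered 3 by the main limma test, 1 by edgeR and 7 by DESeq2. Of these receptors, 1 was called with a filter at 5 CPM, where 13 were tested, and 1 after scaling to a common sum. With a replicate block, 3 members were lower (Ccl6, Ccr1 and Ccr3) and 1 higher (Ccl9), and 8 signalling genes and 5 of the other receptors were called. The shares of all genes called with a robust variance prior or a replicate block are not given here. Calls of members and of both lists also changed with a library left out. No label ties same-numbered samples, so whether they were paired is not known. Only 2 such pairs exist, and the main test used no block. Deviations of same-numbered libraries correlated with r = 0.332 across 12357 genes. With each library left out, log2 fold changes ran from −0.48 to 0.69 for Ccl2, −0.049 to 0.21 for Ccl25, −0.37 to 0.49 for Ccl4, −0.38 to 0.27 for Ccr2, −0.18 to 0.34 for Cx3cr1 and −0.77 to 0.15 for Cxcl10, and outside the members from −0.22 to 0.12 for Gnai2, −0.32 to 0.21 for Gngt2, −0.20 to 0.56 for Klf2 and −0.14 to 0.53 for Nr4a1. Of 33 called genes of other lists, 19 kept their call in every alternative run. The cause of these changes was not tested, and with 2 libraries a group a lone sample left in a group is assumed to vary like the other group. Ccl24, Ackr1, Ccr3, Cxcr3, Ccl27a and Cxcl10 rest on 1 to 287 reads per library, so counting error adds to their spread.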
